A study of Mus musculus with 6 samples.

Results

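The genes described here carry lipids between brain cells or take them up: the apolipoprotein genes Apoe, Apod and Clu, the lipase gene Lpl, the receptor genes Lrp1, Lrp8 and Vldlr, and the lipid exporter genes Abca1 and Abcg1. They were chosen by symbol, without use of their measured values in the choice rule, and are 9 of the 31276 gene symbols in the deposited count table. All 9 had a row, and all 9 passed the filter on low counts that left 16592 genes for testing. RNA was sequenced from mouse brain at postnatal day 14, when myelin is being laid down. The knockout group (KO) held 3 samples labelled as PRMT5 olig2cre KO, and the wild-type group (WT) held 3 samples, all of strain C57BL/6. PRMT5 is an enzyme that methylates arginines on histones and splicing proteins. The name olig2cre stands for a Cre recombinase under control of Olig2, a gene active in oligodendrocyte precursors among other cells. The labels name no allele of Prmt5 beyond this and do not say in which cells Cre acted. They also do not say whether WT animals carried Cre, whether each sample is a different animal, or what the replicate numbers stand for. The p-values therefore rest on differences among these 6 samples, some of which may be technical.

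Lipoproteins in the brain are small particles built mainly by astrocytes around apolipoprotein E. The exporters ABCA1 and ABCG1 load them with cholesterol and phospholipid, and a family of lipoprotein receptors on the cell surface takes the particles up into neurons and glia. Transcription of several of these genes is raised by the liver X receptors (LXR), nuclear receptors that sense oxidised sterols. Myelinating cells are heavy users of cholesterol, most of which they make themselves. VLDLR and the LRP8 protein also serve as receptors for reelin, a secreted protein that guides neuron migration and later acts on synapses.

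Total counts ran from 15089140 to 16365802 in the KO libraries and from 15219817 to 16872925 in the WT libraries. Prmt5, the targeted gene, stood at 68.2, 68.4 and 81.6 CPM (counts scaled to library size) in KO and at 90.8, 90.4 and 91.8 CPM in WT (log2 fold change -0.32, SE 0.0950, edgeR adjusted p = 0.232, and 0.0379 with the replicate block). In all, 199 of the 16592 tested genes were called at a Benjamini-Hochberg adjusted p under 0.05 in edgeR's quasi-likelihood test, 40 higher and 159 lower in KO. Gabra6, a cerebellar granule cell gene, stood at 80.0 and 22.1 CPM in KO replicates 1 and 3 and at 63.8 CPM in WT replicate 1, and it had no count in KO replicate 2 and WT replicates 2 and 3. Xist, expressed in females, was high in KO replicates 1 and 2 and WT replicate 2 and at most 0.254 CPM in the others. Short genes also lay higher in KO replicate 3: across genes, which are not independent replicates, deviations from the mean of all libraries correlated with the log2 of exonic length at -0.28 there, at -0.08 in KO replicate 2 and at 0.12 in KO replicate 1, against 0.06 to 0.14 in WT.

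The brain label held for the defining markers. Neuron markers summed to 7242 to 8019 CPM in KO and 7091 to 8135 CPM in WT, and those of astrocytes to 2788 to 3533 CPM in KO and 3601 to 3635 CPM in WT. All 8 markers of myelinating oligodendrocytes fell, with sums of 897 to 1919 CPM in KO and 7516 to 10215 CPM in WT. Of 8 meningeal fibroblast markers 5 rose, with sums of 224 to 319 CPM in KO and 128 to 137 CPM in WT. In bulk tissue, fewer cells of a type and less RNA per cell cannot be told apart.

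**Figure D1:**
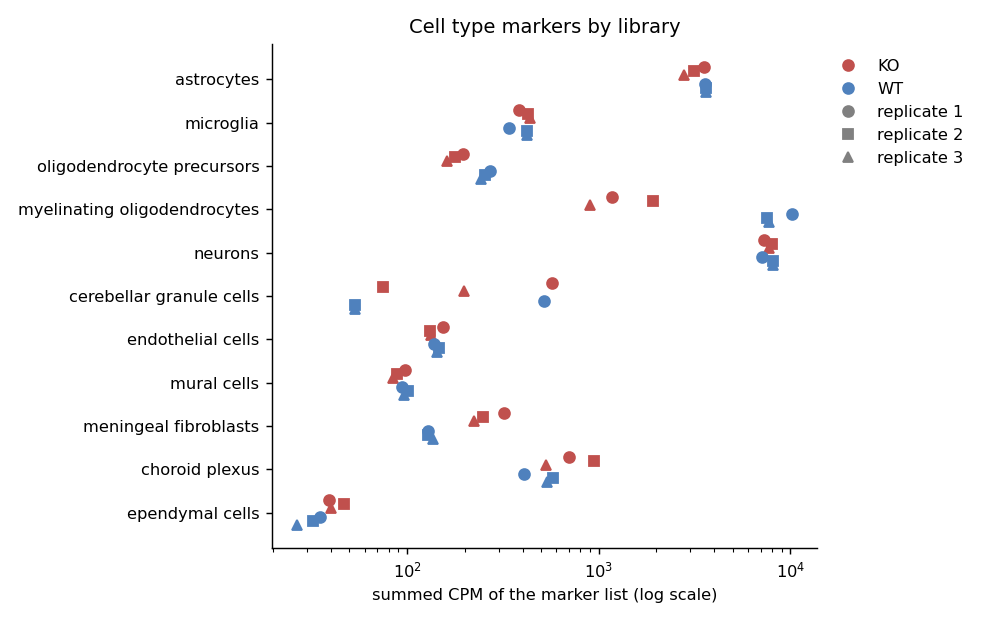
Summed CPM of each list of cell type markers (horizontal, log scale) in each library, with KO above WT and 1 symbol per replicate number. Myelinating oligodendrocyte markers lie at 897 to 1919 CPM in KO and 7516 to 10215 CPM in WT, and cerebellar granule cell markers are high in both replicate 1 libraries and intermediate in KO replicate 3.

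Of the 9 genes, 0 were called between KO and WT in edgeR's quasi-likelihood test, where 1.2% of all tested genes were (0.241% higher and 0.958% lower in KO). At an unadjusted p under 0.05 there was 1 of the 9, Apoe, beside 9.67% of all tested genes. Apoe was also the only one of them called by DESeq2 (1.9% of genes with an adjusted p were, 0.453% higher and 1.45% lower) and with the replicate number as a block (3.41% of tested genes were, 1.03% higher and 2.38% lower). Log2 fold changes of the 9 ran from -0.24 to 0.28 with a median of -0.02, and over all tested genes the median was 0.01. The KO and WT ranges did not overlap for 1 of the 9, against 16% of all tested genes (8.02% higher and 7.99% lower in KO).

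**Figure D2:**
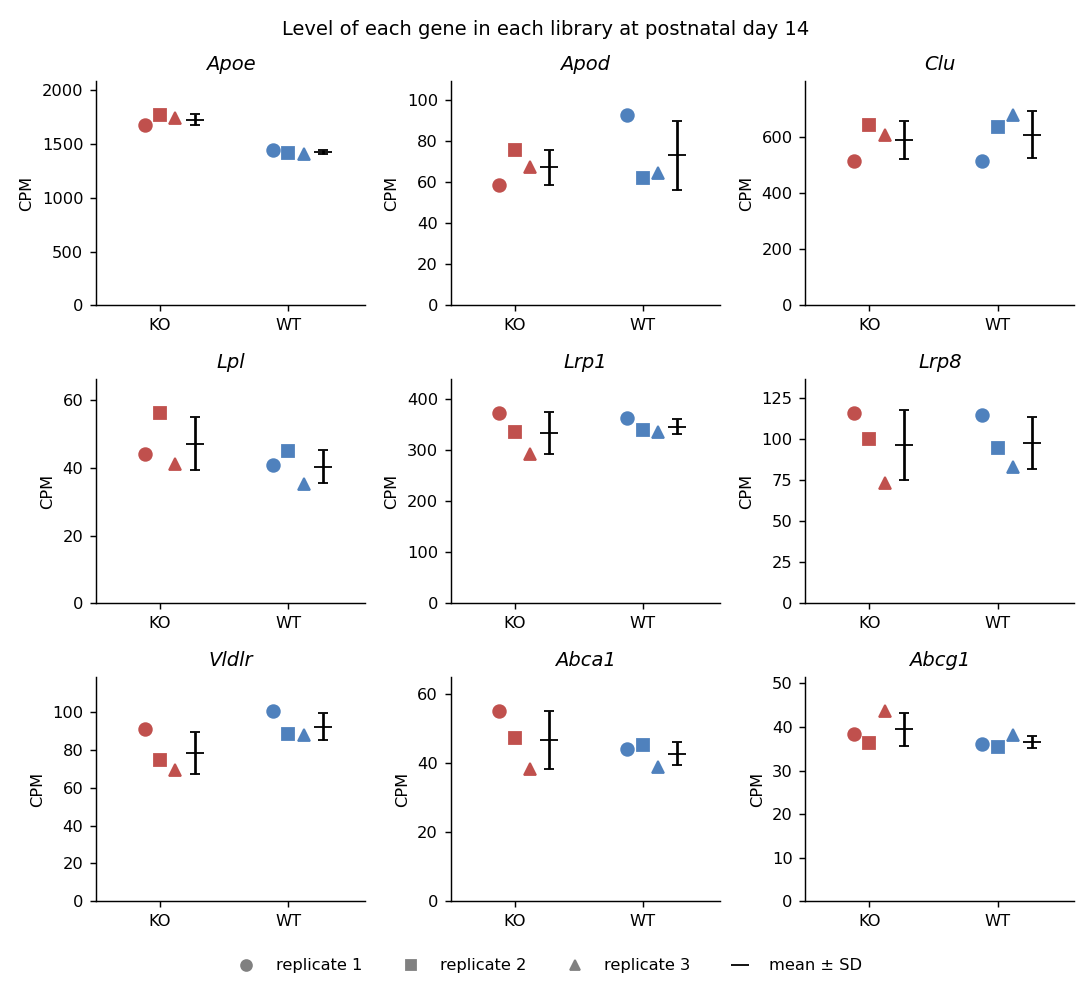
CPM of each of the 9 genes (vertical, from 0) in KO (left, red) and WT (right, blue) libraries, with 1 symbol per replicate number and black bars for mean ± SD (n = 3). Apoe is the gene whose groups do not overlap, at 1675 to 1768 CPM in KO and 1409 to 1447 CPM in WT.

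The first role is that of the lipid carriers. Apoe encodes the main apolipoprotein of the brain, and lies on chromosome 7 at 19696109 to 19699188 on the minus strand in the mm10 build, with 2138 bases of exon. It is shown with Abca1 by its start region, because both are known targets of LXR and both were measured here beside other LXR targets. The 300 bases (RefSeq, GRCm38.p6) cover 250 bases before and 50 after the annotated start, and 6 of the 9 genes had such windows. The printed ones belong to the most upstream start. The search was for the LXR element in its canonical form (AGGTCA, any 4 bases, AGGTCA), a variant (GGTTA, any 4 bases, CGGTCA) whose letters were set after the Abca1 sequence was seen, the E-box CACGTG and the TATA box TATAAA, on both strands. Capitals mark matches:
Abca1 chr4:53159846-53160145, minus strand: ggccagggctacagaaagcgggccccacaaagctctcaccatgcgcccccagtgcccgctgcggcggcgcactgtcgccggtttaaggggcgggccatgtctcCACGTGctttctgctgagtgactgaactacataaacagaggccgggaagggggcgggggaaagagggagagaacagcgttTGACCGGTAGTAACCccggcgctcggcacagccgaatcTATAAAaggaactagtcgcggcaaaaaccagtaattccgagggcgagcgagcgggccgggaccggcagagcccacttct
Apoe chr7:19699139-19699438, minus strand: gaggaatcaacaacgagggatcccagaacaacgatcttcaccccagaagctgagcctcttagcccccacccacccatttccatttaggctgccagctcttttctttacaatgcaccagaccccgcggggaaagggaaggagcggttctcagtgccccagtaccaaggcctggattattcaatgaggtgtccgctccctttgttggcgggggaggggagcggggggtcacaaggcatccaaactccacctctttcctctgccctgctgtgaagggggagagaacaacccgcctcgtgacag
The Abca1 window held, in this order, an E-box 147 to 142 bases before the start, the variant LXR element on the opposite strand 67 to 53 bases before it, and a TATA box 29 to 24 bases before it, with no overlap between them. The printed Apoe window held none of these strings. Sequence outside the windows, where an LXR element could also lie, was not searched. Another Apoe window, chr7:19698572-19698871, held the TATA box string on both strands, 100 to 95 and 96 to 91 bases before its own start. The windows of Apod, Lrp1, Lrp8 and Vldlr held none of the strings. Among 32851 RefSeq windows of the same length, the canonical form was in 5 (0.0152%), the E-box in 7.15% and the TATA box in 13.6%. The variant element was in 4 (0.0122%), the Abca1 window among them. That match was fixed in advance, because the letters were set after the Abca1 sequence was seen. A match is a string of letters and not a measured binding site.

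Apoe stood at 1675, 1768 and 1743 CPM in KO replicates 1 to 3, against 1447, 1422 and 1409 CPM in WT replicates 1 to 3. Every KO library lay above every WT library, and the KO library was higher in each same-numbered pair, by 0.21, 0.31 and 0.31 on the log2 scale. The mean was 1729 ± 48.2 CPM in KO and 1426 ± 19.1 CPM in WT (SD, n = 3 each), a 1.21-fold difference (log2 fold change 0.28, SE 0.0907, 95% confidence interval 0.08 to 0.48). It did not pass the test over all genes (edgeR adjusted p = 0.299), and it passed with the replicate block (edgeR adjusted p = 0.0427) and in DESeq2 (adjusted p = 0.0424). With offsets adjusted for exonic length the log2 fold change was 0.20, and the call with the block was lost (edgeR adjusted p = 0.159). With offsets adjusted for GC content and the block it was lost too (edgeR adjusted p = 0.131). Over all 24 alternatives the log2 fold change kept its sign, from 0.19 to 0.32, with an adjusted p of 0.00102 to 0.99996.

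Apoe is made by astrocytes, microglia and cells of the brain's borders, so the marker lists of these cells are given beside it. Calls in these lists are from the fit without the block unless another fit is named. Astrocyte markers were not called (0 of 8), and their sum was lower in every KO than in every WT library, at 2788 to 3533 CPM in KO and 3601 to 3635 CPM in WT. Slc1a2 led that list, with means of 1734 CPM in KO and 2129 CPM in WT, and its groups did not overlap. Those of every other astrocyte marker did, and the median log2 fold change of the 8 was -0.05. Microglia markers (0 of 8 called, 7 with a positive log2 fold change, median 0.09) summed to 382 to 437 CPM in KO and 341 to 421 CPM in WT. Choroid plexus markers (0 of 6 called, 5 with a positive log2 fold change) summed to 532 to 949 CPM in KO and 406 to 580.2 CPM in WT. That sum was nearly all Ttr, which led the list with means of 703 CPM in KO and 490 CPM in WT. Its groups overlapped, and its log2 fold change was 0.52 (SE 0.197). Ttr was not called without the block (edgeR adjusted p = 0.406) or in DESeq2 (adjusted p = 0.677). It rose with the replicate block (edgeR adjusted p = 0.0144), where 1.03% of all tested genes did. Of 8 meningeal fibroblast markers, led by Col1a2, 5 rose, and the list summed to 224 to 319 CPM in KO and 128 to 137 CPM in WT. No marker of these 4 lists was at 0 in any library. The part of these cells in the Apoe difference was not tested.

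Clu encodes clusterin, also called apolipoprotein J, an extracellular chaperone secreted by astrocytes, neurons and choroid plexus. Clu is on chromosome 14 at 65968483 to 65981547 on the plus strand. It stood at 513, 643 and 606 CPM in KO replicates 1 to 3, against 513, 635 and 676 CPM in WT replicates 1 to 3. Replicate 1 was the lowest library in both groups, and the groups overlapped. The means were 587 ± 67.0 CPM in KO and 608 ± 85.1 CPM in WT (SD, n = 3 each), a log2 fold change of -0.05 (SE 0.126, 95% confidence interval -0.33 to 0.23, edgeR adjusted p = 0.931).

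Apod encodes a lipocalin that binds arachidonic acid and other small lipids. It is found in mature oligodendrocytes and in fibroblasts of vessels and meninges. Apod is on chromosome 16 at 31296192 to 31314808 on the minus strand. It stood at 58.5, 76.0 and 67.3 CPM in KO replicates 1 to 3, against 92.7, 62.3 and 64.7 CPM in WT replicates 1 to 3. WT replicate 1 held the highest value of all and KO replicate 1 the lowest, while in replicates 2 and 3 the KO library was the higher one, by 0.29 and 0.06 on the log2 scale. The means were 67.3 ± 8.74 CPM in KO and 73.2 ± 16.9 CPM in WT (SD, n = 3 each), a log2 fold change of -0.12 (SE 0.154, 95% confidence interval -0.46 to 0.22, edgeR adjusted p = 0.835). Without WT replicate 1 the log2 fold change was 0.08 (edgeR adjusted p = 0.895). Beside it, myelinating oligodendrocyte markers were lower and meningeal fibroblast markers higher in KO, as given above; their part in the Apod values was not tested.

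Lpl encodes lipoprotein lipase, which frees fatty acids from lipoprotein triglycerides and in the brain is expressed by neurons, microglia and oligodendrocyte precursors. Lpl is on chromosome 8 at 68880491 to 68907448 on the plus strand. It stood at 44.1, 56.0 and 41.2 CPM in KO replicates 1 to 3, against 40.7, 45.0 and 35.3 CPM in WT replicates 1 to 3. Replicate 2 was the highest and replicate 3 the lowest library in both groups, and the groups overlapped. In each same-numbered pair the KO library was higher, by 0.12, 0.32 and 0.22 on the log2 scale. The means were 47.1 ± 7.87 CPM in KO and 40.3 ± 4.89 CPM in WT (SD, n = 3 each), a log2 fold change of 0.22 (SE 0.136, 95% confidence interval -0.08 to 0.53, edgeR adjusted p = 0.630). When the fit was limited to KO replicate 2 and WT replicates 2 and 3, which had no Gabra6 count, the log2 fold change was 0.48 (SE 0.126, edgeR adjusted p = 0.00369), and between the other 3 libraries it was 0.06 (edgeR adjusted p = 0.99996). In the fit without Gabra6 counts 7.37% of 17011 genes were called (3.26% higher and 4.11% lower in KO), against 0.942% (0.116% higher and 0.825% lower) between the other 3 libraries, and the lone KO or WT library in each is assumed to vary like the others. Without KO replicate 2 the log2 fold change was 0.08 (edgeR adjusted p = 0.902), and over all 24 alternatives the adjusted p ran from 0.00369 to 0.99996. Precursor markers summed to 162 to 197 CPM in KO and 243 to 270 CPM in WT. Of these 6 markers 1, Pdgfra, fell without the block, 0 had a positive log2 fold change, and the median was -0.42. With the block Lhfpl3, Vcan and Cspg4, named after their values were seen, fell too (edgeR adjusted p = 0.0129, 0.0226 and 0.0316). With the block 2.38% of all tested genes fell. The part of precursor cells in the Lpl values was not tested.

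The second role is that of the receptors. Vldlr encodes the very-low-density lipoprotein receptor, which binds apolipoprotein E particles and reelin. Vldlr is on chromosome 19 at 27216484 to 27254231 on the plus strand. It stood at 90.7, 74.7 and 69.1 CPM in KO replicates 1 to 3, against 100.3, 88.1 and 88.0 CPM in WT replicates 1 to 3. The KO library was the lower one in each same-numbered pair, by differences of -0.15, -0.24 and -0.35 on the log2 scale, and the groups overlapped only through KO replicate 1. The means were 78.2 ± 11.2 CPM in KO and 92.1 ± 7.10 CPM in WT (SD, n = 3 each), a log2 fold change of -0.24 (SE 0.113, 95% confidence interval -0.49 to 0.01, edgeR adjusted p = 0.538, and 0.136 with the replicate block). Vldlr was not called under any of the 24 alternatives, in which its log2 fold change ran from -0.36 to -0.16 and its adjusted p from 0.120 to 0.99996.

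Lrp8 encodes the other receptor shared by apolipoprotein E and reelin, which is mainly neuronal. Lrp8 is on chromosome 4 at 107802261 to 107876840 on the plus strand. It stood at 116, 100.1 and 73.2 CPM in KO replicates 1 to 3, against 114, 94.8 and 83.0 CPM in WT replicates 1 to 3. Replicate 1 was the highest and replicate 3 the lowest in both groups, and the groups overlapped over nearly their whole range. The log2 fold change was -0.02 (SE 0.162, 95% confidence interval -0.37 to 0.34, edgeR adjusted p = 0.982), and it was 0.01 when libraries were scaled by their totals alone or by upper quartiles.

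Lrp1 encodes a large endocytic receptor for apolipoprotein E and many other ligands, found on neurons, astrocytes and precursors. Lrp1 is on chromosome 10 at 127538161 to 127621148 on the minus strand and has 17717 bases of exon, the most of the 9 genes. It stood at 371, 336 and 291 CPM in KO replicates 1 to 3, against 361, 339 and 335 CPM in WT replicates 1 to 3. KO replicate 3, the library in which long genes lay lowest, was the lowest of all, and the WT libraries lay inside the KO range. The log2 fold change was -0.05 (SE 0.106, 95% confidence interval -0.28 to 0.18, edgeR adjusted p = 0.908). With length-adjusted offsets it was 0.06.

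The third role is that of the exporters. ABCA1 passes cholesterol and phospholipid to lipid-poor apolipoproteins, and ABCG1 passes cholesterol to formed particles. Abca1 is on chromosome 4 at 53030787 to 53159895 on the minus strand, and Abcg1 on chromosome 17 at 31057675 to 31117988 on the plus strand. Abca1 stood at 55.2, 47.3 and 38.4 CPM in KO replicates 1 to 3, against 44.2, 45.2 and 39.0 CPM in WT replicates 1 to 3. KO replicate 1 held the highest value and KO replicate 3 the lowest, so the WT libraries lay inside the KO range. The log2 fold change was 0.13 (SE 0.133, 95% confidence interval -0.16 to 0.43, edgeR adjusted p = 0.793). Abcg1 stood at 38.4, 36.3 and 43.6 CPM in KO replicates 1 to 3, against 36.2, 35.4 and 38.1 CPM in WT replicates 1 to 3. Its groups overlapped, while the KO library was the higher one in each same-numbered pair, by 0.09, 0.04 and 0.20 on the log2 scale. The log2 fold change was 0.11 (SE 0.107, 95% confidence interval -0.13 to 0.35, edgeR adjusted p = 0.785).

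**Figure D3:**
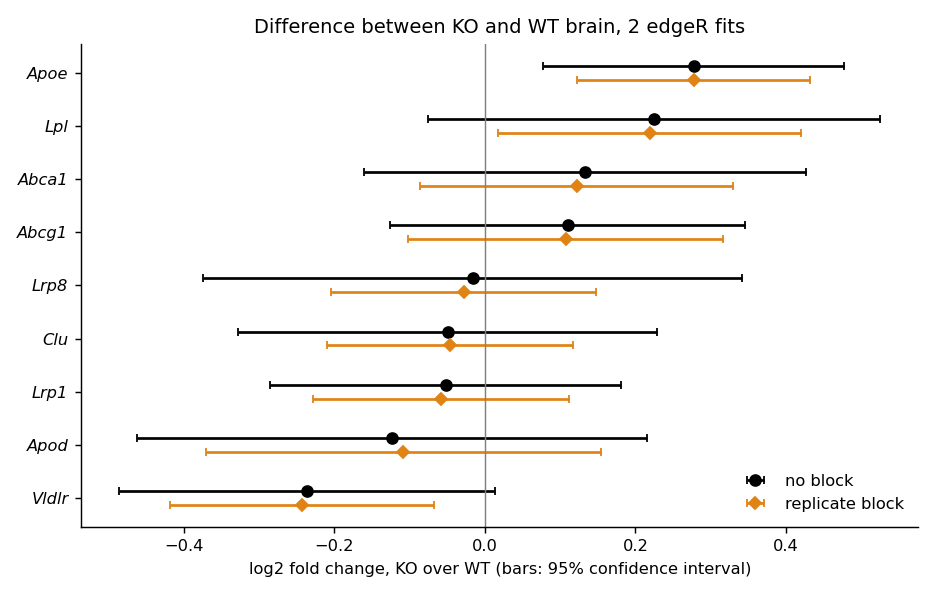
Log2 fold change of each gene, KO over WT (horizontal), with its 95% confidence interval, from the edgeR fit without a block (black circles) and with the replicate number as a block (orange diamonds). The intervals of Apoe exclude 0 in both fits, those of Lpl and Vldlr in the fit with the block, and those of the other 6 genes in neither.

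The confidence intervals limit how large a difference could have gone unseen. As folds, KO over WT, the interval of Apod ran from 0.726 to 1.16, that of Clu from 0.796 to 1.17 and that of Lrp1 from 0.821 to 1.13. Those of Lrp8 ran from 0.772 to 1.27, of Vldlr from 0.714 to 1.01, of Lpl from 0.949 to 1.44, of Abca1 from 0.895 to 1.34 and of Abcg1 from 0.917 to 1.27. No interval of the 9 reached a 2-fold difference in either direction. In the fit with the block the intervals of Lpl (0.02 to 0.42) and Vldlr (-0.42 to -0.07) lay on 1 side of 0 on the log2 scale, but neither gene was called there (edgeR adjusted p = 0.269 and 0.136).

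Levels between genes were compared per kilobase (kb) of annotated exon. Apoe was the most abundant, at 809 ± 22.5 CPM per kb in KO and 667 ± 8.94 in WT (SD, n = 3 each), followed by Clu at 171 ± 19.5 CPM per kb in KO and 177 ± 24.8 in WT. Apod followed at 26.1 ± 3.39 CPM per kb in KO and 28.4 ± 6.56 in WT, and Lrp1 at 18.8 ± 2.26 in KO and 19.5 ± 0.804 in WT. Each of these 4 genes lay above the next in the order in every library, with no overlap of the ranges over the 6 libraries. Lrp8 stood at 9.16 ± 2.04 CPM per kb in KO and 9.26 ± 1.51 in WT, and Vldlr at 7.76 ± 1.11 in KO and 9.15 ± 0.706 in WT. Their ranges overlapped, with Lrp8 the higher one in 5 of 6 libraries. The lowest 3 were Abcg1 at 5.41 ± 0.518 CPM per kb in KO and 5.01 ± 0.189 in WT, Abca1 at 4.53 ± 0.810 in KO and 4.13 ± 0.318 in WT, and Lpl at 4.49 ± 0.751 in KO and 3.85 ± 0.466 in WT, and the ranges of neighbours among them overlapped. Exonic length here is the union of all annotated transcripts, so a gene whose brain transcript is shorter than that union has a higher level per length than given.

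**Figure D4:**
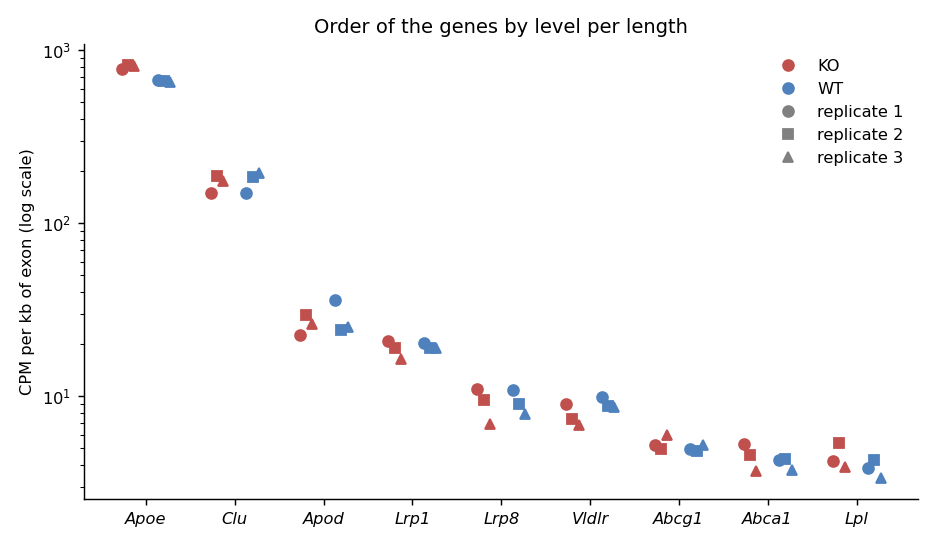
CPM per kb of exon (vertical, log scale) of the 9 genes in each library, ordered by their mean over the 6 libraries, with KO left (red), WT right (blue) and 1 symbol per replicate number. Apoe lies between 659 and 827 CPM per kb in all 6 libraries, and Lpl, the lowest on average, between 3.36 and 5.35.

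For each gene, the genes with the most similar profile were those with the smallest root mean square difference in centred log2 CPM over the 6 libraries, among 10568 other tested genes that averaged 10 CPM or more and had no library at 0. For Apoe these were Banf1 (0.03), a gene for a chromatin-binding protein of the nuclear envelope, and Rad9b (0.04), a checkpoint gene. Those of Clu were Bbs5 (0.02), a ciliary transport gene, and Efhd2 (0.02), and those of Apod were Ttc39c and Osgin2 (0.08 each). Lpl was nearest to Lime1 and Slmo1 (0.04 each), Abca1 to Dlg5 (0.03) and Chd2 (0.04), and Abcg1 to Maged1 and Ahsa1 (0.02 each). Lrp1 was close to Ski (0.03), Lrp8 to Galnt13 and Macf1 (0.05 each), and Vldlr to Tnks and Tmem106b (0.03 each). Of the 2 nearest genes of each of the 9, 0 were called between KO and WT, where 1.2% of all tested genes were. They were picked for profiles like those of the 9 genes in the same libraries. This count was therefore close to fixed by the choice, and nothing is drawn from it.

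Other genes of the same processes were taken from 8 lists with 81 genes in the count table, of which 69 were tested. Of the 69, 1 fell and 0 rose in the fit without a block, which is 1.45% against 1.2% of all tested genes. With the replicate block 8 fell and 2 rose, where 2.38% of all tested genes fell and 1.03% rose (3.41% in all). At an unadjusted p under 0.05 there were 18 (26.1%, against 9.67% of all tested genes). KO and WT ranges did not overlap for 24 of the 69 (34.8%, against 16% of all). The median log2 fold change was -0.08, against 0.01 over all tested genes.

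Where 0.958% of all tested genes fell, 1 of 7 tested reelin signalling genes did. That was Fyn, the kinase that phosphorylates the adaptor DAB1 after reelin binds and that is also active in oligodendrocyte differentiation. Fyn stood at 159, 162 and 153 CPM in KO replicates 1 to 3, against 236, 244 and 239 CPM in WT replicates 1 to 3. The groups lay far apart relative to their spread, with means of 158 ± 4.56 CPM in KO and 239.6 ± 3.90 CPM in WT (SD, n = 3 each), a log2 fold change of -0.60 (SE 0.0834, edgeR adjusted p = 0.00433). All 7 genes of the list had negative values, with a median of -0.13, beside 7913 negative values among all 16592 tested genes. Reln, the ligand gene, and Dab1, the adaptor gene, both named after their values were seen, had log2 fold changes of -0.02 (SE 0.182) and -0.07 (SE 0.0859). Oligodendrocyte markers were lower beside Fyn (897 to 1919 CPM in KO and 7516 to 10215 CPM in WT, summed over the myelinating list), and their part in its fall was not tested.

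With the block 2.38% of all tested genes fell, and 7913 of the 16592 had negative values without it. Of 12 tested genes for other receptors of the same family, 0 were called without the block and 2 fell with the block. Among these 12 genes 10 had negative values, and the median was -0.19. One of the 2 that fell under the block was Sorl1, a sorting receptor gene, named after its values were seen (log2 fold change with the block -0.47, edgeR adjusted p = 0.0125). Sort1, the gene for sortilin, had the smallest p of the receptor folding and turnover list, with a log2 fold change of -0.31 (SE 0.105, edgeR adjusted p = 0.328). Of the 7 tested genes of that list 0 were called without the block and 1 fell with it.

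Of 13 genes of sterol trafficking and conversion 0 were called without the block and 2 fell with it, with a list median of -0.03. Npc1, whose protein moves cholesterol out of lysosomes, stood at 38.4, 40.8 and 34.1 CPM in KO replicates 1 to 3, against 65.0, 61.2 and 46.7 CPM in WT replicates 1 to 3. The groups did not overlap. The log2 fold change was -0.61 (SE 0.132), with an edgeR adjusted p of 0.0622 without the block and 0.000615 with it. Npc1 was called in 11 of the 24 alternatives, which include DESeq2 and limma fits. The other one was Scarb2, a lysosomal membrane protein gene named after its values were seen (log2 fold change with the block -0.55, edgeR adjusted p = 0.00273).

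Over all 16592 tested genes 8679 had positive values, and 2.38% fell with the block. Of the 8 tested LXR and RXR genes and other LXR targets, 0 were called without the block and 1 fell with it. Among these 8 genes 7 had positive values, and the median log2 fold change was 0.09. The 1 with a negative value was Scd1, a fatty acid desaturase gene that sterol regulatory proteins also control, at 116, 79.6 and 62.2 CPM in KO replicates 1 to 3, against 161, 127 and 131 CPM in WT replicates 1 to 3. Its groups did not overlap, and its log2 fold change was -0.70 (SE 0.189). The edgeR adjusted p was 0.168 without the block and 6.39e-05 with it, where it fell. Scd1 was called in 9 of the 24 alternatives, which include DESeq2 and limma fits. Of the 9 tested other lipid ABC transporter genes 0 were called without the block and 1 fell with it, Abca2 (log2 fold change -0.34, SE 0.102, edgeR adjusted p = 0.251, and 0.0248 with the block). Abca2 is strongly expressed in oligodendrocytes.

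The other apolipoprotein genes had few counts. Of 12 genes 3 were tested, and 9 had at most 7 counts in any library. Of the tested ones, Apoa1, which encodes the main protein of high-density lipoprotein in blood, stood at 0.730, 1.26 and 1.52 CPM in KO replicates 1 to 3, against 0.375, 0.203 and 0.120 CPM in WT replicates 1 to 3. The groups did not overlap, and its log2 fold change of 2.29 (SE 0.560) was not called without the block (edgeR adjusted p = 0.113) and was with it (edgeR adjusted p = 0.0489). These levels rest on 12, 20 and 24 counts in KO libraries and 6, 3 and 2 counts in WT libraries, and fewer fragments if both reads of a pair were counted. Among 10 tested lipases and regulators of lipoprotein lipase 0 were called without the block, and 1 rose with it. That was Angptl4, an inhibitor of the lipase, at 7.42, 6.93 and 7.75 CPM in KO replicates 1 to 3, against 4.37, 4.33 and 4.81 CPM in WT replicates 1 to 3. Its groups did not overlap (log2 fold change 0.71, SE 0.179, edgeR adjusted p = 0.133, and 0.0492 with the block). Among the alternatives, which include DESeq2 and limma fits, Apoa1 was called in 2 of the 23 that held it. Angptl4 was called in 2 of 24, Abca2 in 3 of 24 and Sort1 in 2 of 24. Gpihbp1, which anchors the lipase to capillaries, had no count in any library.

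**Figure D5:**
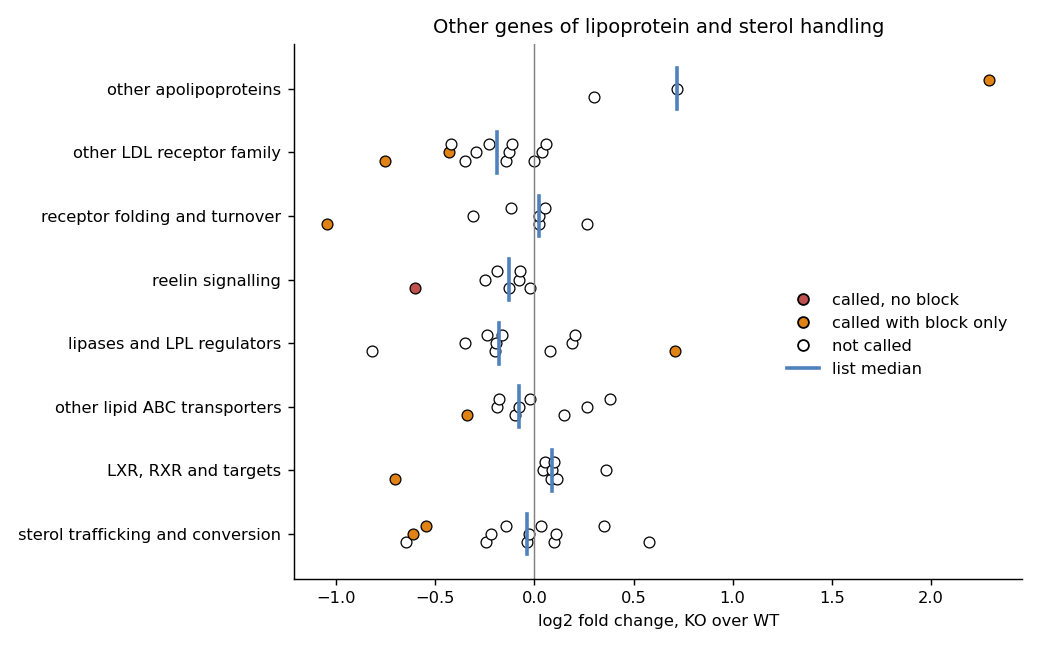
Log2 fold change, KO over WT (horizontal), of the 69 tested genes of 8 lists, with 1 circle per gene, filled red where called without a block, orange where called with the replicate block alone and white where not called, and a blue line at each list's median. Fyn, at -0.60, is the red circle, and 9 genes are orange.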

How the data were processed

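RNA from 3 KO and 3 WT mouse brain samples at postnatal day 14 was extracted with Trizol and sequenced in paired-end reads from TruSeq mRNA libraries, per the labels' protocols. The submitters' processing notes name the mm10 build, the aligner STAR 2.3.0e and the counter featureCounts 1.5.0, beside DESeq2, Trimmomatic 0.32 and FastQC 0.11.2. Strand setting and treatment of multiply mapping reads are not given in the sources used here. No exon of the 9 genes overlapped an exon of another GENCODE M21 gene.

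The authors deposited raw counts in whole numbers, and beside them a normalized signal. Dividing each library's counts by its DESeq2 size factor gave the deposited signal. Of the deposited count values from 1 to 20, 74.7% were even, and the cause was not tested. The sources used here do not say whether read pairs were counted once or read by read, so counts may exceed the number of fragments, and counting noise may be larger than counts imply. Pairs of libraries within a group differed by 6.75 to 27.4 times the counting noise, so none was treated as a duplicate.

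Counts were tested in R 4.3.3 with edgeR 4.0.16 (filterByExpr, TMM scaling, glmQLFit and glmQLFTest, 4 residual degrees of freedom) over 16592 genes, with Benjamini-Hochberg adjustment over all of them, called under 0.05. The SE is the log2 fold change over the square root of the F statistic, and intervals are 95%. CPM uses TMM-scaled totals. The procedure was tested on simulated data. Lengths and positions are from GENCODE M21 (mm10), which held 23597 of the symbols; 92.0% of tested genes had a length and a GC value.

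Same-numbered KO and WT samples deviated together from their group means, with correlations of 0.351, 0.334 and 0.177 across genes, above the limit of 0.1. They were treated as pairs in the fits with a block alone. Of different-numbered samples, KO replicate 2 with WT replicate 3 had 0.1002, also above the limit, and the rest had -0.381 to 0.0284. The pairing was thus inferred from these same counts, and both replicate 1 libraries held cerebellar transcripts. The labels do not state this pairing. The block fit has 2 residual degrees of freedom. Alternatives were other scalings, filters and pseudocounts (limma 3.58.1 on log2 of the signal plus 1 or 0.5), DESeq2 1.42.0, terms for cerebellar transcripts (Gabra6 above 5 CPM) and sex (Xist above 5 CPM), offsets adjusted for length or GC (loess, span 0.5), and leaving out libraries. The genes and lists were chosen with earlier results of these data known. Named were the 9 genes, Prmt5, Gabra6 and Xist, of each list the called genes or else the gene with the smallest p, and for each of the 9 genes the 2 nearest profiles. A marker said to lead its list is the one with the highest mean CPM. Others are marked. Some genes that this rule names are not reported here.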

Additional observations from a re-analysis of the deposited data

How the results depend on the processing

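Of the 9 genes, 0 were called in 20 of 24 alternatives. The count was 1 (Apoe) with DESeq2, with the replicate block and with the cerebellum term and block together, and 2 (Apoe and Lpl) between the libraries without cerebellar transcripts; with each library left out in turn it was 0. Apoe kept its sign throughout, Lpl, Vldlr and Abca1 did too, and the signs of Apod, Clu, Lrp1, Lrp8 and Abcg1 turned under at least 1 alternative. For Apod the log2 fold change was 0.26 between libraries without cerebellar transcripts, -0.57 between those with them, and -0.23 to 0.082 with 1 library left out (above 0 without WT replicate 1). For Clu it was 0.049 with the cerebellum term, 0.0098 with that term and the replicate block, 0.12 between libraries with cerebellar transcripts, and -0.16 to 0.039 with 1 library left out (above 0 without KO replicate 1 or WT replicate 3). For Lrp1 it was 0.013 with the cerebellum term and block, 0.056 with length-adjusted offsets, 0.055 with those and the block, and -0.14 to 0.035 with 1 library left out (above 0 without KO replicate 3). For Lrp8 it was 0.011 with library totals, 0.0086 with upper quartiles, 0.047 with the cerebellum term and block, 0.17 between libraries without cerebellar transcripts, -0.28 between those with them, 0.048 with length-adjusted offsets, 0.047 with those and the block, and -0.17 to 0.15 with 1 library left out (above 0 without KO replicate 3 or WT replicate 1). For Abcg1 it was -0.020 between libraries without cerebellar transcripts. None of these values was called, and the cause was not tested.

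Over all tested genes, 199 were called, against 566 with the replicate block, 315 with DESeq2, 535 with the cerebellum term and block, 1254 between libraries without cerebellar transcripts, 129 with the sex term, 480 with length-adjusted offsets and block, 637 with GC-adjusted offsets and block, and 100 to 305 with 1 library left out. Of the 69 pathway genes 1 was called, against 10 with the replicate block, 5 without a filter on low counts and with DESeq2, 4 with the cerebellum term, 8 with that term and block, 2 between libraries with cerebellar transcripts and 9 between those without, 2 with length-adjusted offsets, 8 with those and block, 3 with GC-adjusted offsets, 11 with those and block, and 1 to 5 with 1 library left out. Fyn was called in all but 1 alternative, the libraries with cerebellar transcripts (log2 fold change -0.60, edgeR adjusted p = 0.635), where WT replicate 1 stands alone. In fits with 1 library in a group, that library is assumed to vary like the others. Apart from the genes named with a block value, the block changed no call of a named gene.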

Other observations

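Cyp46a1, a gene of the sterol trafficking list that encodes the neuronal enzyme turning cholesterol into 24-hydroxycholesterol, was, like Clu, lowest in both replicate 1 libraries, and was picked out after its values were seen. It stood at 165, 235 and 238 CPM in KO replicates 1 to 3, against 166, 239.5 and 243 CPM in WT replicates 1 to 3, with a log2 fold change of -0.02 (SE 0.169). Cerebellar granule cell markers summed to 569.7, 74.7 and 197 CPM in KO replicates 1 to 3, against 517, 53.6 and 53.4 CPM in WT replicates 1 to 3. Their part in the Cyp46a1 and Clu values was not tested.

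Pltp, which encodes a phospholipid transfer protein of lipoproteins, was also picked out after its values were seen. It stood at 48.4, 49.0 and 48.7 CPM in KO replicates 1 to 3, against 31.4, 43.5 and 39.7 CPM in WT replicates 1 to 3. The groups did not overlap, and the difference was not called (log2 fold change 0.35, SE 0.122, edgeR adjusted p = 0.339, and 0.0654 with the replicate block), although it was among the genes called with the cerebellum term and block together.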
